A study of Mus musculus with 10 samples.

Results

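Sorted single cells from crypts of the mouse small intestine were compared between 2 groups of plates, coded GK5a and GK5b in the sample titles. The members are the wells of the sorted plates in which the values of all genes other than the ERCC spike-in RNAs summed to at least 1000 transcripts. By that rule 1615 of the 2116 used wells of the series were members: 1090 wells on 5 GK5a plates, with 189, 230, 233, 224 and 214 wells, and 525 wells on 2 GK5b plates, with 264 wells on the plate titled G and 261 on the plate titled L. The 501 other used wells hold picked doublets or triplets and entered no comparison. Both groups carry the same labels for strain (C57Bl/6), tissue (small intestinal crypts) and kind of sample (sorted single cells), and no genotype, treatment, age or sex is given. The titles do not say what GK5a, M2, GK5b, G or L stand for, nor which gate was used or how many animals were sampled. The plate was therefore the replicate, and p-values measure only the spread between plates, which may be technical. The names of the 5 GK5a tables share 1 code and those of both GK5b tables share another, so any step done once per group cannot be told apart from the group. Depth differed as well: the used wells of a GK5a plate held 1022859 to 2359894 transcripts in total, those of GK5b-G 4832581 and those of GK5b-L 4414455.

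Crypts of the small intestine are pockets of epithelium in which Lgr5-expressing stem cells divide and their offspring mature. Absorptive offspring become enterocytes, which carry digestive enzymes and lipid-handling proteins, while secretory offspring become goblet cells, which make mucus, Paneth cells, which make antimicrobial peptides, enteroendocrine cells, which make hormones, or tuft cells, which sense the lumen. Notch signalling and the transcription factor Atoh1 separate the secretory from the absorptive fate. A pooled plate therefore reads both which cells were caught and what each cell expressed, and fewer cells of a type and less RNA per cell cannot be told apart from a plate sum alone.

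Every used well was thinned to 1000 barcoded molecules, so that depth did not decide its class, and was placed by the share of its molecules in marker genes. The cuts were 1% for goblet markers (Muc2, Tff3, Fcgbp, Zg16, Clca3, Spink4 and Rep15), 2% for Paneth markers, 1% for enteroendocrine markers, 0.5% for tuft markers and 2% for enterocyte markers. A well past more than 1 cut was counted apart, and a well under all 5 cuts is called unclassed. Such a class is a range of a score and not a cell type: 116 of the 1615 wells lay within a factor of 2 of the goblet cut, where 544 lay past it. For Paneth markers 44 GK5b wells lay that near the cut and 39 past it, against 22 and 47 GK5a wells. The epithelial adhesion gene Epcam was present in every plate, at 864 to 1522 CPM in GK5a, 996 in GK5b-G and 996 in GK5b-L.

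Goblet wells made up a larger share of both GK5b plates, and the 2 plates differed from each other. They were 34 of 189, 43 of 230, 39 of 233, 40 of 224 and 36 of 214 wells in GK5a plates 1 to 5, which is 16.7% to 18.7%. In GK5b-G they were 184 of 264 wells, or 69.7% (95% Wilson interval 63.9% to 74.9%), and in GK5b-L 96 of 261 wells, or 36.8% (31.2% to 42.8%). The mean was 17.6% ± 0.831 (SD, n = 5) in GK5a and 53.2% ± 23.3 (SD, n = 2) in GK5b, and the groups did not overlap. The exact two-sided permutation p over the 21 splits of the 7 plates was 0.0952, the smallest this design can give, so no value per plate can pass 0.05. The Wilson intervals and the limits for counts of 0 cover counting error only.

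Enterocyte and tuft wells were nearly missing from GK5b. Enterocyte wells were 4.29% to 10.9% of the GK5a plates, 0 of 264 wells in GK5b-G, which allows a share of up to 1.14%, and 1 of 261 wells in GK5b-L. Tuft wells were 1.40% to 3.48% of the GK5a plates, 0 of 264 wells in GK5b-G and 1 of 261 wells in GK5b-L. For both classes the groups did not overlap, with an exact permutation p of 0.0952. Enteroendocrine wells separated the GK5b plates: 1 of 264 wells in GK5b-G and 7 of 261 in GK5b-L, or 2.68%, within the GK5a range of 2.58% to 4.78%. Paneth markers passed their cut, alone or with another class, in 8, 13, 6, 11 and 9 wells of GK5a plates 1 to 5, in 19 wells of GK5b-G and in 20 of GK5b-L. Of these, 3, 11, 5, 5 and 6 GK5a wells and all 19 GK5b-G wells also passed the goblet cut, as did 19 of the 20 in GK5b-L. Unclassed wells were 56.5% to 72.1% of the GK5a plates, 51.3% of GK5b-L and 22.7% of GK5b-G.

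**Figure D1:**
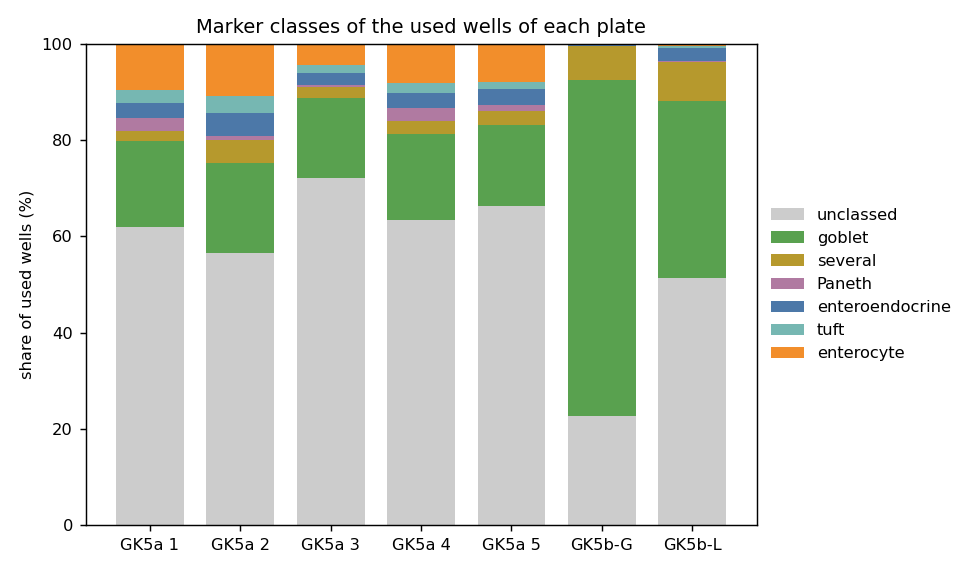
Stacked bars give the share of used wells (vertical axis, %) in each marker class for the 5 GK5a plates and both GK5b plates (horizontal axis). The goblet share is 16.7% to 18.7% in GK5a, 69.7% in GK5b-G and 36.8% in GK5b-L, and the enterocyte share falls from 4.29% to 10.9% in GK5a to under 1% in both GK5b plates.

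GK5b wells also held more RNA molecules for the spike-in added. The median used well held 3361, 7871.4, 6749.9, 5564.4 and 6757 transcripts in GK5a plates 1 to 5, 16427 in GK5b-G and 13944 in GK5b-L. Spike-in molecules went the other way, with a median of 187 to 528 per well in GK5a, 177 in GK5b-G and 181 in GK5b-L. The median log2 ratio of transcripts to spike-in molecules was 4.05 to 4.46 in the GK5a plates, 6.75 in GK5b-G and 6.34 in GK5b-L, and the groups did not overlap (exact permutation p = 0.0952, the smallest possible). The same held within unclassed wells, with 4.18 to 4.68 against 7.31 and 6.53, and within goblet wells, with 3.78 to 4.35 against 6.61 and 6.22. Depth, spike-in molecules and group moved together, and their parts cannot be told apart. At 1000 molecules a well, the median number of genes was 701 to 706 in GK5a, 677 in GK5b-G and 695 in GK5b-L. Within unclassed wells the order was the reverse, with 711 to 714 against 735.5 and 720. Within goblet wells the groups overlapped, with 661.5 to 682.5 against 662 and 658.

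**Figure D2:**
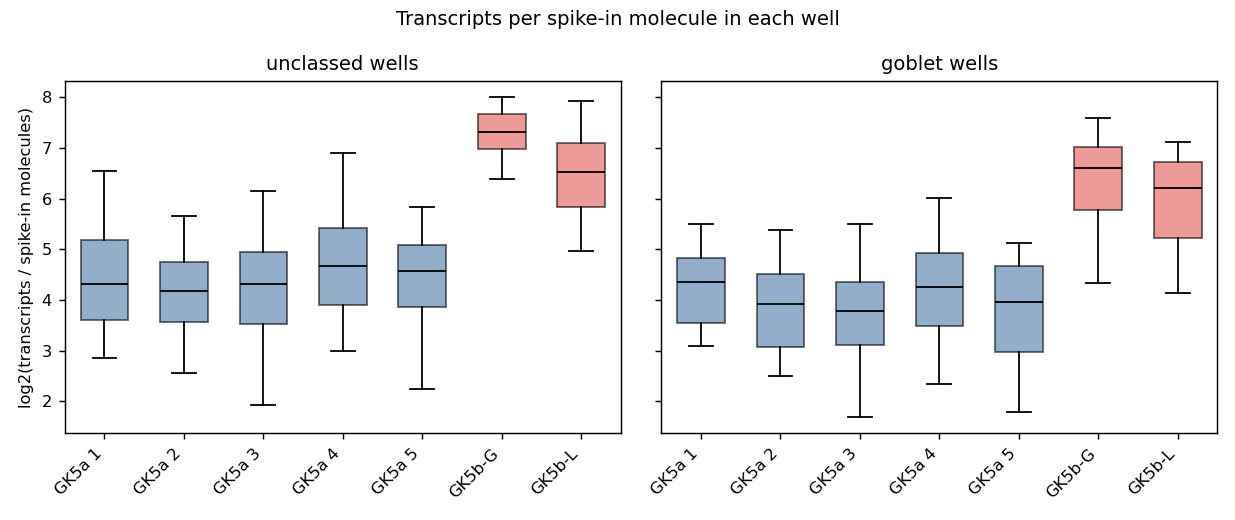
Boxes give the log2 ratio of transcripts to spike-in molecules per well (vertical axis) in unclassed wells (left) and goblet wells (right) of each plate, with the median as a line, the quartiles as the box and the 5th and 95th percentiles as whiskers. Medians are 4.18 to 4.68 in unclassed wells of GK5a against 7.31 and 6.53 in GK5b-G and GK5b-L, and 3.78 to 4.35 against 6.61 and 6.22 in goblet wells.

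Transcripts were then summed per gene over the used wells of each plate, scaled by TMM to CPM and tested with limma. A call is an adjusted p under 0.05 over all genes tested. A log2 fold change is on the log2(CPM + 1) scale, which understates the change of low genes. Of 10641 genes tested, 1385 were called between GK5b and GK5a (13.0%): 676 higher in GK5b (6.35%) and 709 lower (6.66%), the shares against which each list count over all wells below is to be read. Both GK5b plates lay above all GK5a plates for 1773 genes (16.7%) and below all of them for 1688 (15.9%). The count rested on GK5b-G, without which 291 genes were called, against 1125 without GK5b-L and 1040 to 1625 without a GK5a plate.

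**Figure D3:**
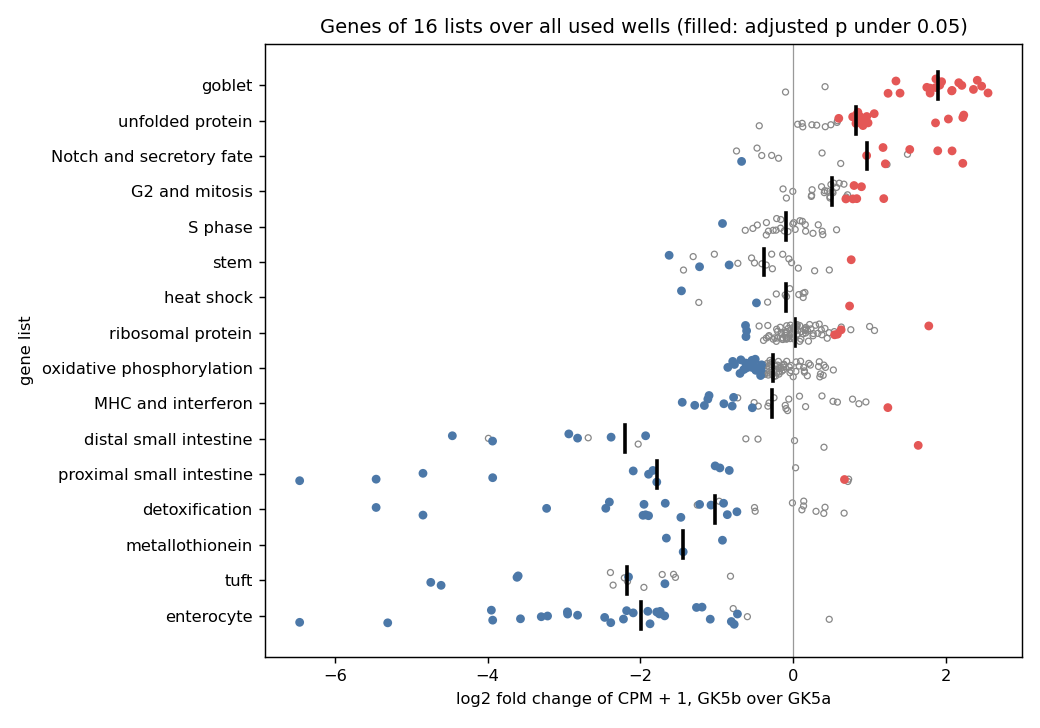
Each point is a gene of the list named on the vertical axis, placed by its log2 fold change of CPM + 1 over all used wells, GK5b over GK5a (horizontal axis). Filled points passed an adjusted p of 0.05, open points did not, and bars are list medians. Goblet and unfolded protein genes lie to the right, with medians of 1.90 and 0.82, and enterocyte, tuft and proximal genes to the left, with medians of -2.0, -2.17 and -1.79.

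Goblet genes rose together. Of the 20 genes on the goblet list, 18 were called higher and none lower, against 6.35% of all genes. Their median log2 fold change was 1.90, against 0.00084 over all genes tested, and 16 were called higher without GK5b-G. These sums hold the same wells whose goblet classes are given above and are no separate evidence, and Spdef and Klf4 also stand on other lists below. Muc2 (chr7:141690340-141754693, mm10), the gel-forming mucin of the small intestine, was at 2170.2, 2674, 1867, 3417 and 1511 CPM in GK5a plates 1 to 5, 12477 in GK5b-G and 8110.3 in GK5b-L. Both GK5b plates lay above all GK5a plates (log2 fold change 2.17, SE 0.27, adjusted p = 3.3e-04). Fcgbp, a mucus protein that cross-links with mucin, was at 976 to 1459 CPM in GK5a, 10077 in GK5b-G and 5154 in GK5b-L and was 6.13 times higher in the mean of the GK5b plates (log2 fold change 2.55, SE 0.23, adjusted p = 6.2e-05). Spink4, a peptide of goblet granules, was at 609.8 to 1647 CPM in GK5a, 6498 in GK5b-G and 4379 in GK5b-L (log2 fold change 2.41, SE 0.31, adjusted p = 3.7e-04). Tff3, the trefoil peptide secreted with mucus, was at 3044 to 4743 CPM in GK5a, 16090.0 in GK5b-G and 9591 in GK5b-L (log2 fold change 1.79, SE 0.21, adjusted p = 2.8e-04). Zg16, a lectin of the mucus layer, was at 1984 to 6049 CPM in GK5a, 10939 in GK5b-G and 6205 in GK5b-L, and its call (adjusted p = 0.027) was lost without GK5b-G (adjusted p = 0.41). Among the 10 genes with the highest log2 fold changes of those at 50 CPM or more were also Scnn1a, a subunit of the epithelial sodium channel (5.82 to 24.2 CPM in GK5a, 103 in GK5b-G and 60.1 in GK5b-L), Fxyd3, a regulator of ion pumps (13.8 to 33.3 CPM in GK5a, 149 in GK5b-G and 85.8 in GK5b-L), and Cbfa2t3, a transcriptional corepressor (26.2 to 68.8 CPM in GK5a, 258 in GK5b-G and 173 in GK5b-L).

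Retnlb had the lowest adjusted p of the genes named here. It encodes resistin-like beta, a protein that goblet cells secrete into the lumen, and lies at chr16:48816856-48818892 (mm10). Its level was 216, 219, 247, 222 and 241 CPM in GK5a plates 1 to 5, 2289.9 in GK5b-G and 1739 in GK5b-L. The GK5a plates stayed within a narrow range and both GK5b plates were far above it (229 ± 14.1 CPM (SD, n = 5) against 2015 ± 389 CPM (SD, n = 2), log2 fold change 3.12, SE 0.13, adjusted p = 2.7e-07). That is 8.8 times higher, where Muc2, read in the same wells, was 4.42 times higher. In goblet wells alone Retnlb was at 1119, 974, 1186, 1089.7 and 1923 CPM in GK5a plates 1 to 5, 3042 in GK5b-G and 3971 in GK5b-L, and both GK5b plates were again above (log2 fold change 1.51, SE 0.22, adjusted p = 0.011), a call lost without GK5b-L (adjusted p = 0.11). Slc34a1, a sodium-phosphate cotransporter, had the highest fitted change (log2 fold change 4.09, SE 0.69, adjusted p = 0.0024) of a limited set. That set was the called genes that averaged 50 CPM or more in the higher group and whose groups did not overlap. The levels of Slc34a1 were low, at 0.558 to 2.94 CPM in GK5a, 12.5 in GK5b-G and 118 in GK5b-L, and its call was lost without either GK5b plate. In GK5b-L, 81.6% of its transcripts came from 1 unclassed well.

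**Figure D4:**
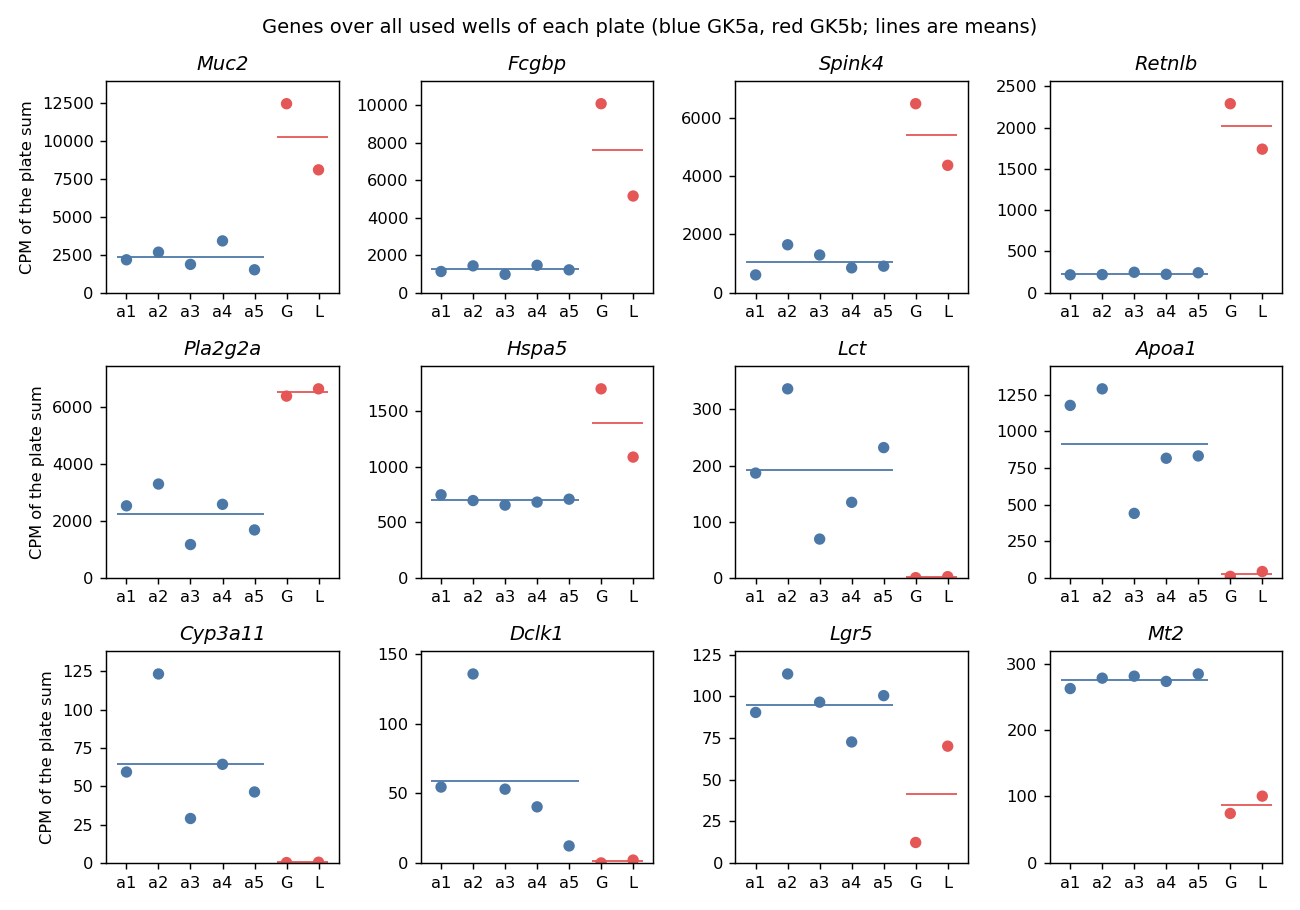
Each panel gives the CPM of a gene (vertical axis, from 0) summed over all used wells of GK5a plates 1 to 5 (a1 to a5, blue) and of GK5b-G and GK5b-L (G and L, red), with horizontal lines at group means. Muc2, Fcgbp, Spink4, Retnlb, Pla2g2a and Hspa5 are higher in both GK5b plates, while Lct, Apoa1, Cyp3a11, Dclk1, Lgr5 and Mt2 are lower, and Lgr5 is far lower in G than in L.

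Several regulators of the secretory fate were called higher in GK5b. Of 17 tested genes on the Notch and secretory fate list, 7 were called higher (Creb3l1, Spdef, Atoh1, Gfi1, Dll4, Foxa1 and Foxa2) and 1 lower (Hes1), with a median log2 fold change of 0.96, and 3 were called higher without GK5b-G. Atoh1, the transcription factor that commits cells to the secretory fate, was at 43.6 to 81.5 CPM in GK5a, 324 in GK5b-G and 169.6 in GK5b-L (log2 fold change 1.89, SE 0.27, adjusted p = 7.5e-04). Creb3l1, a transcription factor tethered to the endoplasmic reticulum, was at 79.3 to 152 CPM in GK5a, 613 in GK5b-G and 374 in GK5b-L (log2 fold change 2.22, SE 0.24, adjusted p = 1.4e-04). Hes1, the Notch target that represses Atoh1, was at 177 to 207 CPM in GK5a, 87.8 in GK5b-G and 161 in GK5b-L, so GK5b-L lay close under the GK5a plates, and its call (adjusted p = 0.039) was lost without GK5b-G (adjusted p = 0.61). Within goblet wells Atoh1 was at 401 ± 65.6 CPM (SD, n = 5) against 457 ± 22.4 CPM (SD, n = 2) and did not pass (adjusted p = 0.82).

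Most tested genes of protein folding in the endoplasmic reticulum were called higher in GK5b, a count that fell without GK5b-G. Secreting cells fold large loads of protein there, and the transcription factors Xbp1 and Atf6 raise chaperone genes when the load grows, binding in part at the ER stress response element (ERSE). Of 25 tested genes on the unfolded protein list, 15 were called higher and none lower, against 6.35% of all genes, with a median log2 fold change of 0.82, but 4 were called higher without GK5b-G. Of the 19 members with a RefSeq promoter, 7 hold the ERSE, spelled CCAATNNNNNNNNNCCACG and searched on both strands of the 250 bases before the gene start, against 37 of 32851 promoters, or 0.113%. They were Calr, Canx, Creld2, Dnajc3, Hsp90b1, Hspa5 and Pdia6, of which 6 were called higher. The 250 bases before the start of 3 of them are shown because these genes rose together, 5′ to 3′ on the strand of the gene, from RefSeq on GRCm38.p6 (the assembly of mm10), with the ERSE in capitals. A match is a description of letters and not of binding. Pdia3, Creb3l4, Xbp1, Herpud1 and Sdf2l1 were also called higher and hold no match. As the list was made of genes of this response, its contrast with all promoters is a description too.
Hspa5, chr2:34771840-34772089, plus strand: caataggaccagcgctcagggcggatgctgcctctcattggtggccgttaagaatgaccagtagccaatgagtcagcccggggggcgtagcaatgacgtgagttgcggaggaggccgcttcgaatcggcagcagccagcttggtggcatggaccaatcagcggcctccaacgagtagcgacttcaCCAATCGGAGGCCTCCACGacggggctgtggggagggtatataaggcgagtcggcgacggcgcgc
Calr, chr8:84846932-84847181, minus strand: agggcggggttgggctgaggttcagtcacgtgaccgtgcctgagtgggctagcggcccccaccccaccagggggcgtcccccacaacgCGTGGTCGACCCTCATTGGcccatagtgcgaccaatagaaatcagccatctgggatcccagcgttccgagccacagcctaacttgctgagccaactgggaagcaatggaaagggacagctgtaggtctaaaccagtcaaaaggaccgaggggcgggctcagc
Creld2, chr15:88819396-88819645, plus strand: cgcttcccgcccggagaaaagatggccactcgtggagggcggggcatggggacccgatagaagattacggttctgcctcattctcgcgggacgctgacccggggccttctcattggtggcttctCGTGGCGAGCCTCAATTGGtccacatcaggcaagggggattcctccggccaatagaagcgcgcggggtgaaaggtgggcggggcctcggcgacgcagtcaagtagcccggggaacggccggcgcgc

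Hspa5, the main chaperone of the endoplasmic reticulum, was at 746, 694, 653, 680.2 and 707 CPM in GK5a plates 1 to 5, 1698 in GK5b-G and 1085 in GK5b-L. Both GK5b plates were above all GK5a plates, and GK5b-G was the higher (log2 fold change 0.96, SE 0.16, adjusted p = 0.002), although the call was lost without GK5b-G (adjusted p = 0.07). Calr, a chaperone that holds calcium and binds glycoproteins, was at 455 to 604 CPM in GK5a, 1123 in GK5b-G and 728 in GK5b-L (log2 fold change 0.87, SE 0.17, adjusted p = 0.0059), and this call too was lost without GK5b-G (adjusted p = 0.2). Pdia3, which forms disulfide bonds in glycoproteins, was at 117 to 141 CPM in GK5a, 585 in GK5b-G and 386 in GK5b-L over all wells, and it passed in unclassed wells (98.2 to 123 against 255 and 229.6 CPM, log2 fold change 1.08, SE 0.14, adjusted p = 0.002) and in goblet wells (221 to 334 against 726 and 731 CPM, log2 fold change 1.38, SE 0.19, adjusted p = 0.011). The call in unclassed wells was lost without GK5b-G, and that in goblet wells without either GK5b plate. It was the only member of the list called in either of those sets, and it was at 299.5 CPM, from 16 transcripts, in the enteroendocrine wells of GK5b. P4hb, another disulfide isomerase, was at 634 to 937 CPM in GK5a, 1159.8 in GK5b-G and 824 in GK5b-L and did not pass (adjusted p = 0.42).

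Enterocyte genes fell. Of 30 tested genes on the enterocyte list, 27 were called lower and none higher, against 6.66% of all genes, with a median log2 fold change of -2.0, and 19 were called lower without GK5b-G. Lct, the lactase of the brush border, was at 187, 337, 69.0, 134 and 232 CPM in GK5a plates 1 to 5, 0.219 in GK5b-G and 2.03 in GK5b-L, so both GK5b plates were close to 0 (log2 fold change -6.46, SE 0.49, adjusted p = 3.7e-05). Apoa1, the apolipoprotein of high-density lipoprotein, was at 1177, 1290.2, 439.7, 816 and 832 CPM in GK5a plates 1 to 5, 9.63 in GK5b-G and 42.6 in GK5b-L (log2 fold change -5.31, SE 0.47, adjusted p = 5.8e-05). The mean of the GK5a plates was 34.9 times that of the GK5b plates. Fabp2, a fatty acid carrier, fell less, with 1748 to 4447 CPM in GK5a, 756 in GK5b-G and 493 in GK5b-L (log2 fold change -2.39, SE 0.31, adjusted p = 4.3e-04). Sis, the sucrase-isomaltase, was at 470.3 to 968 CPM in GK5a, 229.8 in GK5b-G and 223 in GK5b-L (log2 fold change -1.74, SE 0.23, adjusted p = 4.6e-04). In unclassed wells 3 enterocyte genes were called lower (Lct, Mep1b and Fabp2) and 1 was called higher (Cps1), of 28 tested. Of all genes tested there, 0.7% were called lower and 0.96% higher. Of these 4 enterocyte calls that of Mep1b alone held whichever plate was left out.

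Named transporters and drug-handling genes were lower as well in the sums over all wells. The part of the share of enterocyte wells in this was not tested. Slc15a1, the peptide transporter, was at 63.1 to 257 CPM in GK5a, 1.31 in GK5b-G and 4.28 in GK5b-L (log2 fold change -5.17, SE 0.43, adjusted p = 3.7e-05). Slc34a2, a phosphate transporter, was at 44.2 to 84.2 CPM in GK5a, 0.656 in GK5b-G and 3.38 in GK5b-L (log2 fold change -4.61, SE 0.37, adjusted p = 3.7e-05), and Cubn, a receptor for intrinsic factor with vitamin B12, was at 34.5 to 89.6 CPM in GK5a, 0 in GK5b-G and 4.28 in GK5b-L. The detoxification list had 16 of 28 tested genes called lower and none higher, against 6.66% of all genes, and 12 lower without GK5b-G. Its leading members Cyp3a11 (29.0 to 123 CPM in GK5a, 0.219 in GK5b-G and 0.45 in GK5b-L, log2 fold change -5.46, SE 0.41, adjusted p = 3.7e-05) and Cyp3a25 (20.7 to 144 CPM in GK5a, 0.875 in GK5b-G and 2.7 in GK5b-L) are cytochrome P450 enzymes. Gpx2, a glutathione peroxidase of the crypt, was at 378 to 728 CPM in GK5a, 716 in GK5b-G and 846 in GK5b-L and did not pass (adjusted p = 0.27). Clca6 was at 0.918 to 149 CPM in the GK5a plates and had no molecule in either GK5b plate, and its call (adjusted p = 0.032) was lost without either GK5b plate and without GK5a plate 2, 4 or 5.

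Among genes that mark a position along the intestine, 11 of 15 tested proximal genes were called lower and 1 higher (Onecut2), and 6 of 14 tested distal genes lower and 1 higher (Guca2a), against 6.66% and 6.35% of all genes. The summed share of the distal list went the other way, at 0.615% to 0.779% of transcripts in the GK5a plates, 0.855% in GK5b-G and 0.833% in GK5b-L. In goblet wells 2 of 5 tested distal genes were called higher and none lower, against 0.315% and 0.13% of all genes tested there. These were Reg3g and Reg3b, which also stand on the Reg and antimicrobial list, and both calls were lost without GK5b-L. Several of the position genes are enterocyte genes as well. The share of enterocyte wells moved with them, and its part was not tested. Fabp6, the bile acid carrier of the ileum, was at 300.4, 481, 354, 255 and 634 CPM in GK5a plates 1 to 5, 2.41 in GK5b-G and 184 in GK5b-L. GK5b-G was far below GK5b-L, where 63.8% of the transcripts came from 1 unclassed well, and the call (adjusted p = 0.024) was lost without GK5b-G (adjusted p = 0.2) and without GK5a plate 5. Onecut2, a transcription factor of the proximal intestine, was called higher over all wells (96.6 to 148 CPM in GK5a, 209.8 in GK5b-G and 181 in GK5b-L, log2 fold change 0.67, SE 0.16, adjusted p = 0.018), a call lost without GK5b-G (adjusted p = 0.29). It was also called in unclassed wells (119.6 to 185 against 275 and 236 CPM, adjusted p = 0.026), a call lost without either GK5b plate or GK5a plate 4 or 5. Gata4, another proximal transcription factor, was called higher in unclassed wells, at 56.2 to 124 CPM in GK5a, 242 in GK5b-G and 171 in GK5b-L (log2 fold change 1.13, SE 0.24, adjusted p = 0.032), a call lost without either GK5b plate or GK5a plate 5.

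On the tuft list 6 of 15 tested genes were called lower and none higher, against 6.66% of all genes lower, with 2 lower without GK5b-G and 11 lower without GK5a plate 5. Dclk1, a kinase that marks tuft cells, was at 54.4, 136, 52.9, 40.2 and 12.2 CPM in GK5a plates 1 to 5, 0 in GK5b-G and 2.03 in GK5b-L (log2 fold change -4.75, SE 0.67, adjusted p = 7.4e-04), with no molecule in GK5b-G. Rgs13, a regulator of G protein signalling, was at 11.3 to 124 CPM in GK5a, 0 in GK5b-G and 1.8 in GK5b-L (log2 fold change -4.61, SE 0.68, adjusted p = 9.3e-04). The tuft sums likewise hold the wells whose tuft classes are given above and are no separate evidence. Of 22 tested enteroendocrine genes 1 was called higher (Sct) and none lower, against 6.35% and 6.66% of all genes. The 2 GK5b plates went opposite ways here. The median log2 fold change of the list was -0.73, but -2.22 with GK5b-G as the only GK5b plate and 1.00 with GK5b-L as the only one. Chgb, a granin of hormone granules, was at 102 to 848 CPM in GK5a, 37.7 in GK5b-G and 457 in GK5b-L and did not pass (adjusted p = 0.36). Of 23 Paneth genes 3 were called higher (Mmp7, Nupr1 and Habp2) and 3 lower (Defa21, Defa22 and Defa20). The latter are among alpha-defensins whose near-identical sequences leave single members uncertain. The median of the Paneth list was -0.73, with -1.35 for GK5b-G as the only GK5b plate and -0.09 for GK5b-L as the only one. The lysozyme gene Lyz1 lay at 1586 to 5237 CPM in GK5a, 1041 in GK5b-G and 1817 in GK5b-L and did not pass (adjusted p = 0.16).

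Stem and cell cycle genes differed between the GK5b plates. Lgr5, the receptor that marks crypt base stem cells, was at 90.3, 113, 96.4, 72.5 and 100.3 CPM in GK5a plates 1 to 5, 12.3 in GK5b-G and 70.0 in GK5b-L. GK5b-L lay just under the lowest GK5a plate and GK5b-G far under it, and the call (log2 fold change -1.62, SE 0.45, adjusted p = 0.033) was lost without GK5b-G (adjusted p = 0.49) and without GK5a plate 2, 3, 4 or 5. On the stem list 3 of 20 tested genes were called lower (Lgr5, Ascl2 and Rnf43) and 1 higher (Prom1), against 6.66% and 6.35% of all genes. With GK5b-G as the only GK5b plate 11 were called lower, and with GK5b-L as the only one none was. Mki67, a protein of dividing cells, was at 232 to 280.5 CPM in GK5a, 596 in GK5b-G and 345 in GK5b-L (log2 fold change 0.83, SE 0.18, adjusted p = 0.0097), and the call was lost without GK5b-G (adjusted p = 0.29). Of 27 tested G2 and mitosis genes 6 were called higher and none lower, with none called without GK5b-G and 16 without GK5b-L. In unclassed wells 68.3% held 5 or more molecules of 1000 in this list in GK5b-G, 29.9% in GK5b-L and 20.8% to 35.0% in the GK5a plates. Of 26 tested S phase genes 1 was called lower (Cdt1) and none higher, and Pcna, the sliding clamp of DNA replication, was at 447 to 506 CPM in GK5a, 427 in GK5b-G and 464 in GK5b-L (adjusted p = 0.77).

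Of 80 tested nuclear genes of oxidative phosphorylation 23 were called lower and none higher, against 6.66% of all genes lower, with a median log2 fold change of -0.26, and 4 were called without GK5b-G, 5 without GK5b-L and 12 without GK5a plate 4 or 5. Atp5g3, a subunit of ATP synthase, was at 2789 to 2962 CPM in GK5a, 2002 in GK5b-G and 1977 in GK5b-L (log2 fold change -0.53, SE 0.11, adjusted p = 0.0092), a call lost without either GK5b plate. Cox17, a copper chaperone of cytochrome oxidase, was called lower over all wells (244 to 320.3 against 166 and 135 CPM), in unclassed wells (219 to 305 against 157 and 132 CPM, adjusted p = 0.018) and in goblet wells (256 to 359.9 against 157 and 144 CPM, adjusted p = 0.044). Its call over all wells held whichever plate was left out, that in unclassed wells was lost without either GK5b plate or GK5a plate 4, and that in goblet wells was lost whichever of the 7 plates was left out. Of 80 tested ribosomal protein genes 4 were called higher and 3 lower, against 6.35% and 6.66% of all genes, with a median of 0.02. No call of a ribosomal protein gene over all or unclassed wells held without GK5b-G. Rps20, a protein of the small ribosomal subunit, was lower over all wells, at 3587 to 4260.5 CPM in GK5a, 2398 in GK5b-G and 2590.0 in GK5b-L (log2 fold change -0.62, SE 0.12, adjusted p = 0.0061), and in unclassed wells (4178 to 5023 against 2618 and 2854 CPM). Rpl31, of the large subunit, was higher over all wells (131 to 353 against 843 and 806 CPM), in unclassed wells (166 to 433 against 895 and 857 CPM) and in goblet wells (93.7 to 332 against 751 and 778 CPM), but it has processed copies in the genome, so its reads may be split among them. Its call in unclassed wells was lost without GK5b-L as well, and that in goblet wells was lost unless the plate left out was GK5a plate 1. Of 13 tested heat shock genes 1 was called higher (Bag3) and 2 lower (Hspa1b and Hspe1), and of 22 immediate-early genes 2 were called higher (Klf4 and Btg2) and 4 lower (Egr2, Myc, Socs3 and Ier5), against 6.35% higher and 6.66% lower of all genes.

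On the MHC and interferon list 9 of 28 tested genes were called lower, against 6.66% of all genes (H2-Aa, H2-Q1, H2-T3, H2-Ab1, H2-Eb1, Tap2, B2m, H2-DMa and Irf1) and 1 higher (Oas1a), with 4 called lower without GK5b-G. H2-Aa, the alpha chain of a class II molecule, was at 619.6 to 1136 CPM in GK5a, 346 in GK5b-G and 297 in GK5b-L (log2 fold change -1.45, SE 0.19, adjusted p = 5.0e-04). B2m, the light chain of class I molecules, was at 1560.3 to 2223 CPM in GK5a, 1144 in GK5b-G and 1138 in GK5b-L (log2 fold change -0.80, SE 0.15, adjusted p = 0.004), a call lost without GK5b-G (adjusted p = 0.07). In unclassed wells 0 of 29 tested members were called. As 1.66% of all genes tested there were called, this count does not set the list apart. H2-Aa was at 760.1 ± 135 CPM (SD, n = 5) against 488 ± 197 CPM (SD, n = 2) in unclassed wells (adjusted p = 0.12).

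The metallothionein genes Mt1 and Mt2 and the zinc exporter gene Slc30a1 were lower in both GK5b plates; they are the 3 tested of the 5 genes on this list. Metallothioneins bind zinc and copper, and the metal-responsive factor MTF1 raises Mt1, Mt2 and Slc30a1 through metal response elements (MRE). Mt2 (chr8:94172664-94173568, mm10) was at 262, 278, 281, 273 and 284 CPM in GK5a plates 1 to 5, 74.4 in GK5b-G and 100.5 in GK5b-L. The 5 GK5a plates lay close together and both GK5b plates were far below (276 ± 8.54 CPM (SD, n = 5) against 87.5 ± 18.4 CPM (SD, n = 2), log2 fold change -1.66, SE 0.14, adjusted p = 3.7e-05). Slc30a1 was at 30.7 to 44.1 CPM in GK5a, 13.3 in GK5b-G and 10.8 in GK5b-L (log2 fold change -1.44, SE 0.20, adjusted p = 7.3e-04). Mt1 was at 310.0 to 511 CPM in GK5a, 197 in GK5b-G and 246 in GK5b-L, and its call (adjusted p = 0.012) was lost without GK5b-G (adjusted p = 0.2). In unclassed wells Mt2 was again lower in both GK5b plates, at 351, 345, 335, 314 and 344 CPM in GK5a plates 1 to 5, 100.1 in GK5b-G and 135 in GK5b-L (log2 fold change -1.53, SE 0.14, adjusted p = 6.9e-05), while Mt1 (478 ± 96.7 CPM (SD, n = 5) against 297 ± 10.6 CPM (SD, n = 2)) did not pass (adjusted p = 0.078). The 250 bases before each gene start are shown because the 3 genes fell together, with every MRE core in capitals, spelled TGCACNC or TGCGCNC and searched on both strands. Such a core occurs in 21.4% of the 32851 promoters, so its presence alone sets no gene apart.
Mt1, chr8:94178839-94179088, plus strand: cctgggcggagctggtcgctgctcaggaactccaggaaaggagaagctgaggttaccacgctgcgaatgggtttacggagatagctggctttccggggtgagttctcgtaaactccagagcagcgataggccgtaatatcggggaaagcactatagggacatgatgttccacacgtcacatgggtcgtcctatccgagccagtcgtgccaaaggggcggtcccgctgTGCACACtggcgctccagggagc
Mt2, chr8:94172368-94172617, plus strand: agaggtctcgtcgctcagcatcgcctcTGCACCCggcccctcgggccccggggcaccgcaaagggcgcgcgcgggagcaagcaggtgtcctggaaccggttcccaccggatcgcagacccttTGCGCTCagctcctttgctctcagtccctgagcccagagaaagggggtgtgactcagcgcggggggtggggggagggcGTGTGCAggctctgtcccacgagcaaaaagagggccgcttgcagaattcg
Slc30a1, chr1:191906531-191906780, plus strand: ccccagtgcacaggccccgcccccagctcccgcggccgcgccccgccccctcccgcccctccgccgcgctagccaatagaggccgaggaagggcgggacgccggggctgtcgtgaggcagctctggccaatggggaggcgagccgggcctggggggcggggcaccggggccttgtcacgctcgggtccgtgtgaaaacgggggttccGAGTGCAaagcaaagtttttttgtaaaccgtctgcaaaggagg

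Unclassed wells were compared next, since they hold the marker classes out as far as the markers show them. Over 60 wells in GK5b-G, 134 in GK5b-L and 117 to 168 in each GK5a plate, 166 of 9996 genes were called (1.66%): 96 higher in GK5b (0.96%) and 70 lower (0.7%). The count was 20 without GK5b-G, 96 without GK5b-L, 307 without GK5a plate 1, and 84 and 85 without plates 5 and 4. Lower genes included Snhg4, a host gene of small nucleolar RNAs (112 to 138 against 44.4 and 72.0 CPM, log2 fold change -1.17, SE 0.18, adjusted p = 0.006), Pdgfa, a growth factor for mesenchymal cells (129 to 189 against 31.0 and 89.7 CPM, adjusted p = 0.028), and Slc25a20, the mitochondrial carnitine carrier (58.0 to 105 against 36.3 and 37.8 CPM, adjusted p = 0.018). Krt20, a keratin of mature epithelium, and Mep1b, a brush border protease, were also lower, at 131 to 291 against 60.9 and 96.0 CPM and 121 to 206 against 57.5 and 54.1 CPM. Higher genes included Papss2, which makes the sulfate donor for sulfation (11.7 to 29.8 against 122 and 74.5 CPM, log2 fold change 2.44, SE 0.32, adjusted p = 0.002), and 2210404O07Rik (12.8 to 33.0 against 145 and 83.3 CPM). Of these 7 calls, that of Mep1b held whichever plate was left out, and the others were lost without GK5b-G.

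Goblet products were at higher levels in unclassed wells of GK5b than in those of GK5a, and Muc2 and Pla2g2a were so in enteroendocrine wells too. As goblet markers chose the wells, these values are a description. Muc2 was at 80.8 CPM over the unclassed wells of GK5a and 1074 CPM over those of GK5b. In enteroendocrine wells, which are not known for mucus, Muc2 was at 216 CPM over 37 wells of GK5a and 1368 CPM over 8 wells of GK5b, at median depths of 3239 and 5766 transcripts, against 6919 and 20382 in unclassed wells. Retnlb was at 64.7 CPM in unclassed wells of GK5b, from 289 transcripts, and at 56.1 CPM, from 3 transcripts, in enteroendocrine wells. Pla2g2a was at 822 CPM in unclassed and 712 CPM in enteroendocrine wells of GK5b, and at 140.3 and 196 CPM in those of GK5a. Molecules of Muc2 were found in 100% of the unclassed wells of GK5b and in 41.6% of those of GK5a. The enteroendocrine levels of GK5b rest on 8 wells. Whether the unclassed levels of Muc2, Retnlb and Pla2g2a are expression or free RNA was not tested.

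Within goblet wells few genes were called. Over 184 goblet wells in GK5b-G, 96 in GK5b-L and 34 to 43 in each GK5a plate, 24 of 5390 genes were called (0.445%): 17 higher in GK5b (0.315%) and 7 lower (0.13%). An unadjusted p under 0.05 was reached by 517 genes. When a plate was left out, limma called 0 to 15 genes, with 4 without GK5b-G and 0 without GK5b-L, where 203 had an unadjusted p under 0.05. The antimicrobial lectins Reg3g and Reg3b were called higher in goblet wells, with Reg3g at 1410.1, 1632, 1258, 1754 and 883 CPM in GK5a plates 1 to 5, 3329 in GK5b-G and 5236 in GK5b-L (log2 fold change 1.63, SE 0.24, adjusted p = 0.011) and Reg3b at 404 to 941 against 1738 and 2234 CPM (log2 fold change 1.60, SE 0.27, adjusted p = 0.02). The call of Reg3g was lost without GK5b-L, and that of Reg3b without either GK5b plate or GK5a plate 5. Over all wells Reg3g did not pass, at 2339 ± 522 CPM (SD, n = 5) against 3029.5 ± 15.5 CPM (SD, n = 2) (adjusted p = 0.22), and in unclassed wells it was at 1222 to 3094 against 1824 and 1920.5 CPM. Enteroendocrine wells held Reg3g at 308 CPM in GK5a and 450.0 CPM in GK5b. Pla2g2a, a secreted phospholipase that kills bacteria, was higher in goblet wells (2531 to 5569 against 7817 and 11060.0 CPM, log2 fold change 1.60, SE 0.26, adjusted p = 0.018). Pglyrp1, a protein that binds bacterial peptidoglycan, was at 12.05 to 31.3 against 124 and 143 CPM (adjusted p = 0.015), and Tac1, a neuropeptide gene of enteroendocrine cells, at 4.02 to 48.3 against 185 and 323 CPM (adjusted p = 0.04). Both calls were lost without either GK5b plate, and that of Tac1 also without GK5a plate 1, 2, 3 or 4. The goblet wells of a GK5a plate held 144938 to 387164 transcripts in total, those of GK5b-G 2980068 and those of GK5b-L 1396997. Low GK5a levels in goblet wells therefore rest on few transcripts. Unclassed wells of GK5b-G and GK5b-L held Tac1 at 6.43 and 8.12 CPM. The main goblet products did not pass, with Muc2 at 14236 ± 3554 CPM (SD, n = 5) against 19935 ± 3155 CPM (SD, n = 2) (adjusted p = 0.42), Tff3 at 23127 ± 3892 CPM (SD, n = 5) against 25665 ± 3377 CPM (SD, n = 2) and Zg16 at 21770.0 ± 10464 CPM (SD, n = 5) against 18172 ± 2437 CPM (SD, n = 2), while Fcgbp was at the threshold (adjusted p = 0.0498). An enterocyte comparison was not possible with 0 and 1 enterocyte wells on the GK5b plates.

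**Figure D5:**
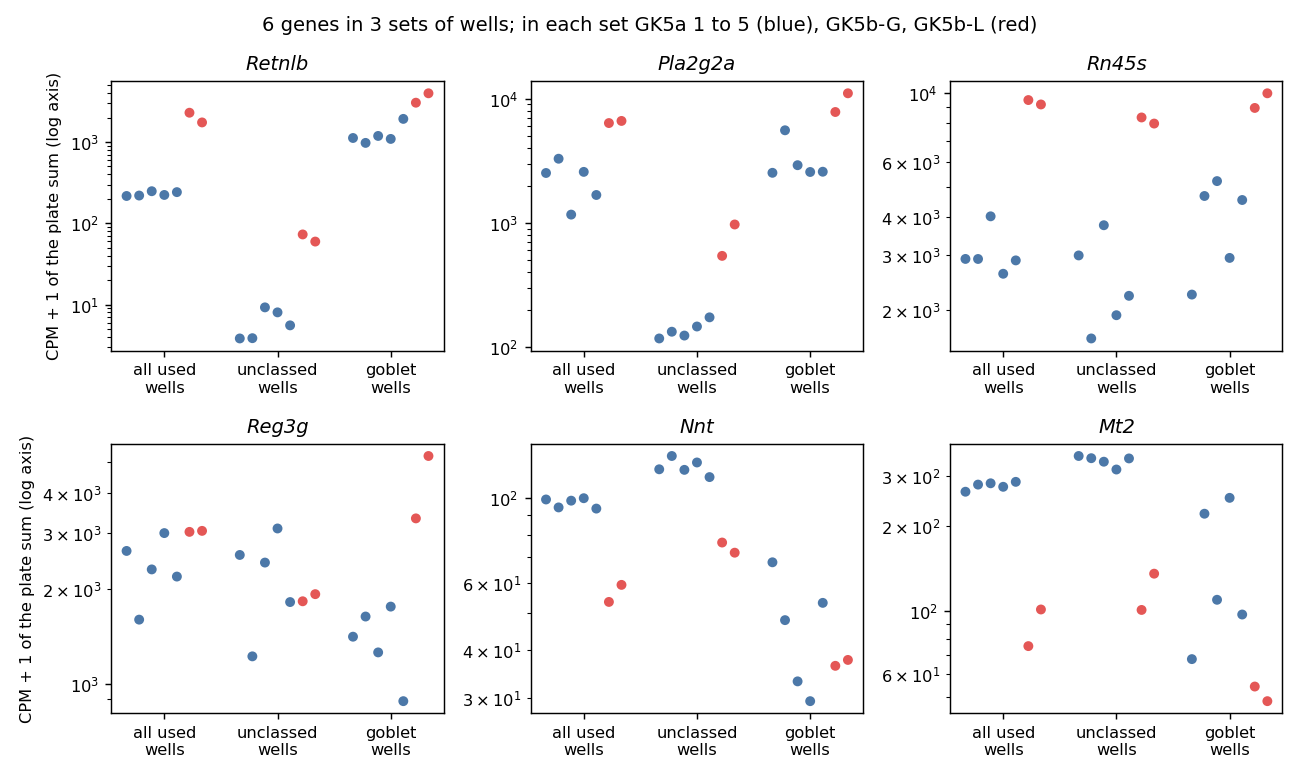
Each panel gives CPM + 1 of a gene on a log axis for all used wells, unclassed wells and goblet wells, with GK5a plates 1 to 5 in blue and GK5b-G and GK5b-L in red within each set. Rn45s and Pla2g2a are higher in both GK5b plates in all 3 sets, Mt2 lies lower in all 3 but did not pass in goblet wells, and Reg3g separates the groups in goblet wells and not in unclassed wells.

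Rn45s and Pla2g2a passed in each of the 3 sets of wells, but their calls in goblet wells depended on single plates. Rn45s, the precursor of ribosomal RNA from many gene copies, was at 2919, 2918, 4006, 2615 and 2888 CPM in GK5a plates 1 to 5, 9499.5 in GK5b-G and 9193 in GK5b-L over all wells (log2 fold change 1.62, SE 0.16, adjusted p = 9.1e-05). It was at 1617 to 3749 against 8347 and 7978 CPM in unclassed wells (adjusted p = 0.0022) and at 2240.2 to 5204 against 8959 and 9989 CPM in goblet wells (adjusted p = 0.04). The goblet call was lost without GK5b-G (0.15), GK5b-L (0.3) or GK5a plate 2, 3, 4 or 5. Its copies cannot be told apart in these counts. Malat1, a nuclear long noncoding RNA, was at 967 to 1540.4 CPM in GK5a, 2649 in GK5b-G and 1979.9 in GK5b-L over all wells (adjusted p = 0.014, and 0.31 without GK5b-G). Pla2g2a (chr4:138831857-138835186, mm10) was at 2522, 3286, 1165, 2574 and 1677 CPM in GK5a plates 1 to 5, 6368 in GK5b-G and 6623 in GK5b-L over all wells (log2 fold change 1.62, SE 0.31, adjusted p = 0.0047). Its goblet call was lost without GK5b-L (adjusted p = 0.19) or GK5a plate 3 or 5, and its unclassed level in GK5b lay near that of enteroendocrine wells, as given above. Nnt, a proton pump of the inner mitochondrial membrane, was at 98.0, 93.4, 97.3, 98.8 and 92.7 CPM in GK5a plates 1 to 5, 52.5 in GK5b-G and 58.3 in GK5b-L (log2 fold change -0.78, SE 0.13, adjusted p = 0.0023). Both GK5b plates lay below all GK5a plates. In unclassed wells Nnt was at 112 to 128 against 75.4 and 70.9 CPM (adjusted p = 0.023), a call lost without either GK5b plate or GK5a plate 4 or 5. The calls of Pla2g2a and Nnt over all wells were lost without GK5b-G (adjusted p = 0.07 and 0.059). Both genes carry known loss-of-function alleles in C57BL/6 lines, and the values give RNA and not the allele. The Y-linked genes Ddx3y (60.8 to 93.8 CPM in GK5a, 106 in GK5b-G and 85.3 in GK5b-L) and Eif2s3y (62.1 to 98.0 CPM in GK5a, 66.3 in GK5b-G and 66.1 in GK5b-L) were present in every plate.

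The GK5b plates also differed from each other, where 1 plate each allows values and no test. Genes higher in GK5b-G included Agr2, a disulfide isomerase needed for mucin (1056 to 1546 CPM in GK5a, 6454 in GK5b-G and 3207 in GK5b-L), Fkbp11, a prolyl isomerase of secretory cells (17.5 to 31.1 CPM in GK5a, 147 in GK5b-G and 64.8 in GK5b-L), Ccl9, a chemokine (51.2 to 93.2 CPM in GK5a, 490.2 in GK5b-G and 223 in GK5b-L), and Galnt12, which starts O-glycans on mucins (45.3 to 75.7 CPM in GK5a, 315 in GK5b-G and 159.7 in GK5b-L). For these 4 genes both GK5b plates lay above all GK5a plates. Kit, a receptor tyrosine kinase, was at 25.2 to 58.2 CPM in GK5a, 159 in GK5b-G and 79.5 in GK5b-L, with both GK5b plates above. Spc25, of the kinetochore, was at 41.3 to 53.6 CPM in GK5a, 118 in GK5b-G and 51.3 in GK5b-L, and there GK5b-L lay within the GK5a range. For several genes higher in GK5b-L, most transcripts came from a single well. Gip, the hormone of K cells, was at 434 CPM in GK5b-L with no molecule in the 264 wells of GK5b-G, and at 5.97 to 1201 CPM in the GK5a plates. Over the unclassed wells of GK5b-L, Gip was at 92.0 CPM and had a molecule in 79.8% of 134 wells, and over its goblet wells it was at 136 CPM. Gpx3, a secreted peroxidase, had 87.4% of its GK5b-L transcripts in 1 unclassed well, and Igj, the joining chain of antibodies made by plasma cells, had 94.3% in 1 unclassed well. Cck, a hormone, had 84.6% in 1 enteroendocrine well.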

How the data were processed

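Single cells sorted into 384-well plates were read with CEL-seq2, which counts barcoded molecules per gene and well. Alignment to mm10 used BWA 0.6.2-r126, per the submitters' processing notes. The deposited tables hold, per gene and well, a transcript number that is not a whole count: the values fit the whole number of distinct barcodes seen, corrected by the authors for barcodes shared among 4096, within 0.001. All columns are well numbers, so cell barcodes shared between plates could not be counted.

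Wells with 1000 or more transcripts outside the ERCC spike-ins were kept, and no doublet caller was run. Transcripts were summed per gene and plate, kept at 10 or more at the median library size in 2 plates and 15 or more in total, scaled by TMM to CPM, and entered as log2(CPM + 1) into limma 3.58.1 in R 4.3.3 (trended variance, Benjamini-Hochberg adjustment over all genes tested). The deposited values are not whole counts, and limma was used in place of the planned count-model tests, although whole barcode numbers could be recovered. A limma run on those barcode numbers called 1387 genes over all wells. Values per plate were tested by exact permutation of the plates. The script was tested on simulated data. Python 3.11.15 was used for all other steps.

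Members and gene lists were chosen with earlier results of these data known. Named genes were the 10 highest and 10 lowest log2 fold changes among called genes at 50 CPM or more whose groups did not overlap, 8 each way in unclassed wells, 8 each way between GK5b-G and GK5b-L, up to 4 members of each list by mean CPM, and a fixed set of markers. Gata4, Cps1, Cox17, Rpl31, Pglyrp1, Tac1, Creld2, Pdia3 and the called members of lists with few calls were named after their values were seen. Gene positions are from GENCODE on mm10, and promoters from RefSeq on GRCm38.p6. Some lists were not counted over all wells above, though some of their genes were named. They include junction and adhesion (2 of 28 called higher), p53 targets (1 of 9 lower), immune (0 of 14) and stromal or endothelial (0 of 1). Also among them are type 2 response (1 of 7 higher, 3 lower), Reg and antimicrobial (2 of 11 higher, 2 lower), RNA quality (2 of 7 higher, 1 lower) and X and Y linked (0 of 4).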

Additional observations from a re-analysis of the deposited data

Results flagged for a closer look

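In 15 of 162 measures over the 5 GK5a plates, 1 plate lay further from the others than Dixon's 95% critical value of 0.71 allows; chance alone flags about 1 in 20 groups. In GK5a plate 2 the share of wells past several cuts was 4.783%, against 2.12% to 2.80% in the other GK5a plates. The same plate had Igj, the antibody joining chain, at 790.1 CPM against 0 to 7.77 CPM, Ghrl, the ghrelin gene, at 40.42 CPM, Fkbp11 at 31.14 CPM, Calr at 604.1 CPM, the alcohol dehydrogenase gene Adh1 at 1144 CPM and Ddx3y at 93.83 CPM. GK5a plate 1 had the hormone gene Nts at 614.4 CPM against 0 to 89.7 CPM, the noncoding RNA Kcnq1ot1 at 1408 CPM against 153 to 214 CPM, the chaperone gene Hspa8 at 1293 CPM and Hspe1 at 987.8 CPM. GK5a plate 3 had the mast cell protease gene Mcpt1 at 288.8 CPM against 0 to 69.6 CPM, and Rn45s at 4006 CPM. GK5a plate 5 had Reg1 at 704.3 CPM against 69.4 to 185 CPM, and the histone mRNA binding gene Slbp at 113.3 CPM, below the other plates. The group of 2 GK5b plates is too small for this rule.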

How the results depend on the processing

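No called gene that was named by the fixed rules changed direction under any alternative run. Genes named only after their values were seen, such as Pdia3 and Cox17, were not in this check. A gene counted as reversed only if it was called in the main or the alternative run, and 0 did so. Genes called in neither could change sign, as Mki67 did in goblet wells (log2 fold change 0.61, and -0.23 without GK5b-G). Over all wells the count of 1385 stayed within 1.5 times except with wells thinned to 1000 (431), and leaving out a plate gave 291 (without GK5b-G) to 1625. In unclassed wells the count of 166 became 65 with no filter, 45 with no trend, 47 with wells thinned, 88 as a mean of CPM per well and 370 with double cuts, and leaving out a plate gave 20 (without GK5b-G) to 307 (without GK5a plate 1). In goblet wells the count of 24 became 143 with no filter, 13 with a filter at 50 transcripts, 1 with no trend, 11 with wells thinned, 9 at 2000 or more transcripts a well, 8 as a mean of CPM per well, 3 with halved cuts and 0 with double cuts, where limma gave 285 genes at an unadjusted p under 0.05. Leaving out a plate gave 0 (without GK5b-L, with 203 at an unadjusted p under 0.05) to 15. The cause of these changes was not tested. With a GK5b plate left out, the lone plate was assumed to vary like the GK5a plates. Class shares, transcripts and the spike-in ratio kept their direction. The count-model tests and all alternatives for enterocyte wells were not run. No paired analysis was possible because the plates of the groups share no number in the labels. Precision per gene is limited by 2 GK5b plates.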
